A study of Mus musculus with 8 samples.

Results

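The BCL2 family was examined in neural stem cells (NSCs) 7 days after X-ray irradiation, through 10 of its genes that are not counted here among the direct targets of p53. Members were chosen by name: the pro-survival genes Bcl2, Bcl2l1, Bcl2l2 and Mcl1, the pore-forming pro-death genes Bak1 and Bok, and the BH3-only pro-death genes Bid, Bad, Bik and Bcl2l11. Every probe set, a group of short probes meant to read RNA of a gene, whose only annotated symbol was a member was taken. This gave 35 probe sets for the 10 genes, of 45101 probe sets on the array and of 18193 genes with a probe set of their own. Of the 35, 26 passed the filter on low values (an intensity over 100, a log2 value of 6.64, on at least 1 array) and were tested, and 9 stayed below it on all 8 arrays, among them all 3 of Bik.

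The cells were NSCs derived from mouse embryonic stem cells, kept in Euromed-N medium with N2 supplement, EGF and FGF2. The irr group held 4 samples of cells that received 10 Gy and were taken on day 7, and the non-irr group held 4 samples of cells that were not irradiated. The methods describe extraction of RNA from live cells. The submitters' design note calls the 4 samples of each group biological replicates, and n = 4 arrays in each group throughout. The ES cell line behind these samples is not given in the labels.

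The BCL2 family sets whether the outer membrane of mitochondria stays closed. BAX, BAK and BOK can open pores in it through which cytochrome c leaves and starts the caspase cascade. BCL2, BCL-XL, BCL-W and MCL1 hold BAX, BAK and their activators in check. BH3-only proteins such as BIM, BID, BAD and BIK carry death signals to the family by binding pro-survival members or the pore formers. In neural progenitors the balance of these proteins is known to set the response to DNA damage.

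At 7 days after irr, RNA of all 4 pro-survival genes was higher and RNA of both pore-forming genes was lower. By their brightest probe sets, 1 of the 3 tested BH3-only genes was higher (40.2% of all tested genes) and 2 were not called. Of the 26 tested probe sets, 17 were higher in irr NSCs, against 38.3% of all 19713 tested probe sets, and 4 were lower, against 37.6% of all (adjusted p under 0.05, limma). Among the 15 tested probe sets of pro-survival genes 14 were higher and none was lower, with the one remaining, of Bcl2, at a log2 fold change of 0.20 (adjusted p = 0.062 from limma). Among the 11 tested probe sets of pro-death genes, 3 were higher and 4 were lower. These counts hold 1 probe set of Bid and 1 of Bcl2l11 that passed the filter only in the group where they are higher. With probe sets over the filter in both groups, a choice made after seeing the data, 16 of 24 member probe sets were higher (37.7% of all 17840) and 3 were lower (37.5% of all). The 4 irr arrays all lay above the 4 non-irr arrays for 17 of the 26 probe sets (35.9% of all probe sets) and all below them for 4 (34.4% of all). When each gene was read through its brightest probe set, 5 of 9 tested members were higher (40.2% of all 11364 tested genes) and 2 were lower (37.1% of all). Calls were common on these arrays, in either direction at 75.9% of all probe sets and 77.4% of all genes. Probe sets of 1 gene read RNA of the same gene and are not independent. The calls of the pro-death members, 3 higher and 4 lower of 11, are not far from those shares. Changes were mostly below 2-fold. Only 2 member probe sets were higher by 2-fold or more, 1 of Bcl2 and 1 of Bcl2l1 (8.46% of all probe sets), and none was lower by as much (6.10% of all). Fewer cells with a transcript and less of it per cell cannot be told apart in RNA of whole cultures.

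**Figure D1:**
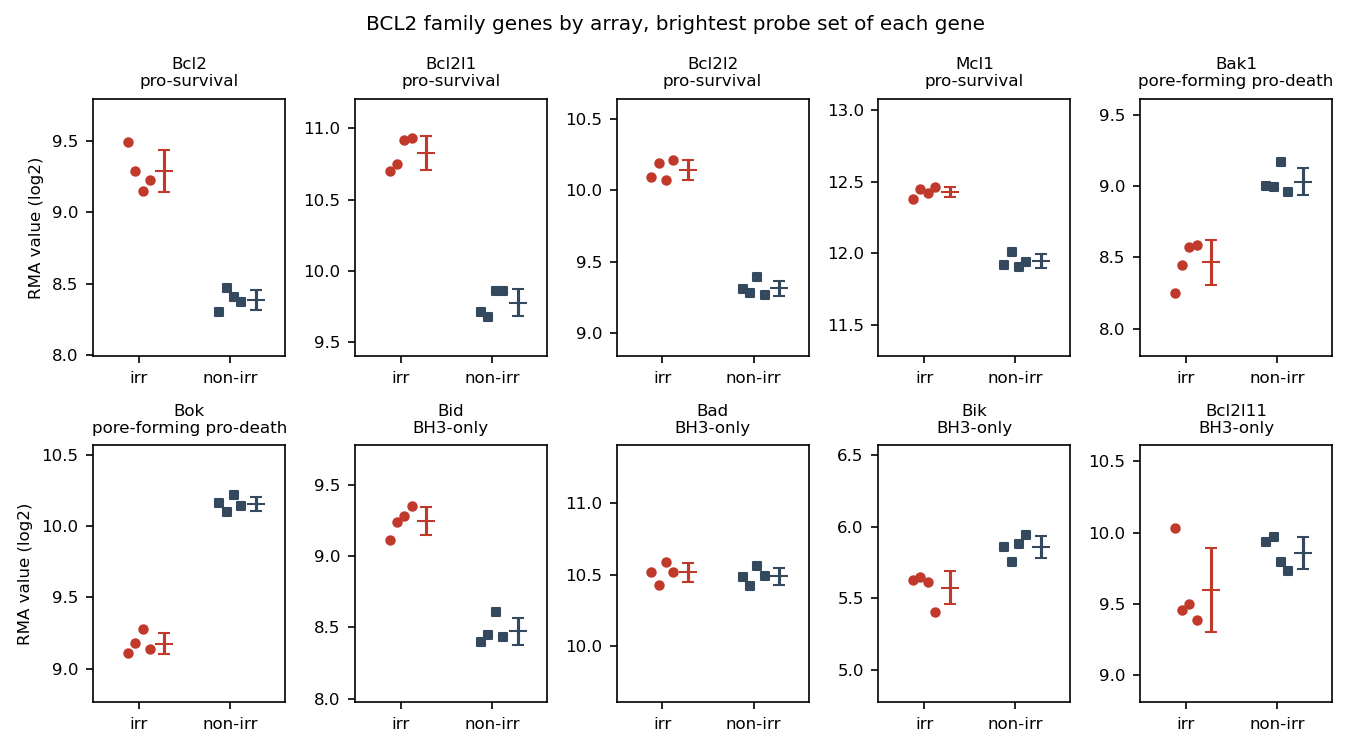
RMA values (log2 scale) of the brightest probe set of each of the 10 genes, with 4 irr arrays (red circles) left of 4 non-irr arrays (dark squares); bars are the mean and SD, and all panels span the same range of log2 values. The groups do not overlap for Bcl2, Bcl2l1, Bcl2l2, Mcl1, Bak1, Bok, Bid and Bik, and Bik lies below the intensity filter on every array.

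Bcl2l1, which encodes BCL-XL, the pro-survival member with a major role in neurons, rose 2.06-fold by its brightest probe set (1420888_at). Log2 values were 10.70, 10.75, 10.92 and 10.93 on irr arrays, against 9.71, 9.68, 9.86 and 9.86 on non-irr arrays. Every irr array lay above every non-irr array, and the log2 fold change was 1.05 (standard error 0.07, adjusted p = 4.6e-07 from limma). A further Bcl2l1 probe set (1420887_a_at) read 1.5-fold higher (log2 fold change 0.59, standard error 0.088), with 3 of 4 non-irr arrays under the intensity filter. The other 2 Bcl2l1 probe sets were below the filter on every array, with log2 differences of 0.34 and 0.03 and overlapping groups. Which transcript forms of a gene each probe set reads was not examined, here or for the other members.

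Bcl2, the founding member of the family, had log2 values of 9.49, 9.29, 9.15 and 9.23 on irr arrays by its brightest probe set (1457687_at), against 8.30, 8.47, 8.41 and 8.37 on non-irr arrays. The groups did not overlap and the increase was 1.87-fold (log2 fold change 0.90, standard error 0.075, adjusted p = 2.1e-06 from limma). The highest increase among the tested member probe sets was that of a further Bcl2 probe set (1437122_at), with 8.05, 8.08, 7.95 and 8.10 on irr arrays, against 6.77, 6.78, 6.86 and 6.69 on non-irr arrays, or 2.41-fold (log2 fold change 1.27, standard error 0.054, adjusted p = 1.9e-08 from limma). Another Bcl2 probe set (1422938_at) had 7.79, 7.87, 7.46 and 7.82 on irr arrays, against 7.65, 7.54, 7.51 and 7.43 on non-irr arrays. Its groups overlapped through irr replicate 3. It was not called (log2 fold change 0.20, standard error 0.09, adjusted p = 0.062 from limma), but was without irr replicate 3 (0.30, adjusted p = 0.0018 from limma) or without non-irr replicate 1 (0.24, adjusted p = 0.048 from limma). The remaining 2 Bcl2 probe sets stayed below the filter, with log2 differences of 0.91 and 0.36 and groups that did not overlap.

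Mcl1 encodes a pro-survival protein of short life that neural progenitors depend on. All 6 of its probe sets passed the filter and all 6 were higher, with groups of arrays that did not overlap. The brightest (1448503_at) had log2 values of 12.38, 12.45, 12.42 and 12.46 on irr arrays, against 11.92, 12.01, 11.90 and 11.94 on non-irr arrays, a 1.4-fold increase (log2 fold change 0.48, standard error 0.044, adjusted p = 4.5e-06 from limma). The Mcl1 probe sets fell into 2 levels of change. This one and 1416881_at read 0.48 and 0.49 (log2 fold change), and the other 4 read from 0.88 to 0.99, or 1.84-fold to 1.99-fold. The mean of the 6 rose by 0.77 (log2, standard error 0.04, adjusted p = 1.2e-08 from limma). Of the 4 with the larger change, 3 carry an identifier ending in _x_at, which marks probes that may also bind other transcripts.

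Bcl2l2, which encodes BCL-W, a pro-survival member expressed in brain, was higher by all 4 of its probe sets, from 1.15-fold to 1.77-fold. The brightest (1423572_at) had log2 values of 10.09, 10.19, 10.07 and 10.21 on irr arrays, against 9.31, 9.28, 9.39 and 9.27 on non-irr arrays (log2 fold change 0.82, standard error 0.052, adjusted p = 2.7e-07 from limma). The other 3 read 0.44, 0.21 and 0.33 higher on the log2 scale, and none of the 4 had overlapping groups.

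**Figure D2:**
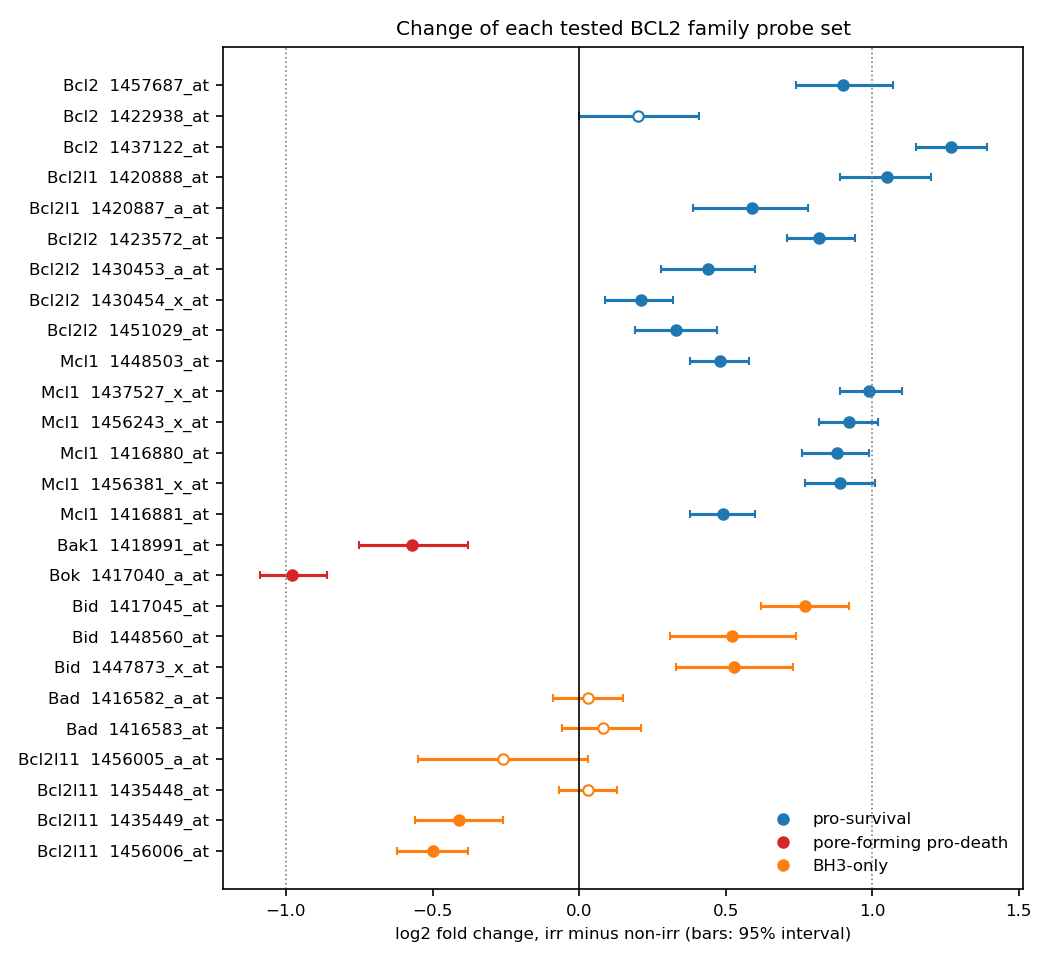
Log2 fold change (irr minus non-irr, 4 arrays each) of the 26 tested probe sets, coloured by role, with the 95% interval of the limma fit as bars; filled points were called at an adjusted p under 0.05 and dotted lines mark a 2-fold change. The pro-survival probe sets lie between 0.20 and 1.27, Bak1 and Bok at -0.57 and -0.98, and the BH3-only probe sets between -0.50 and 0.77. Points of Bid 1447873_x_at and Bcl2l11 1456006_at (-0.50), which passed the filter only in the group where they are higher, are given as a description.

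The promoters of pro-survival genes that rose together differed in their letters. For 9 of the 10 members the RefSeq promoter table (GRCm38.p6) had 1 or more start sites, and the 250 bases before each were searched on both strands for GGGCGG (the GC box), CCAAT (the CCAAT box), TATAAA (the TATA box) and TGTTTAC (a FOXO motif). Bcl2 had 7 GC boxes, Mcl1 and Bcl2l2 had 1 each, and the 3 Bcl2l1 start sites had none, against 32.7% of all 32851 promoters with at least 1. None of the 9 members searched (all but Bik) held the TATA box, which 12.4% of all promoters held. Among them the CCAAT box was found before start sites of Bad and Bcl2l11 only (33.8% of all promoters). The windows of Bcl2, with the most GC boxes, and of Mcl1, with 1, are shown side by side as pro-survival genes that rose, with the GC boxes of either strand in capitals.
Bcl2, chr1:106714291-106714540, minus strand: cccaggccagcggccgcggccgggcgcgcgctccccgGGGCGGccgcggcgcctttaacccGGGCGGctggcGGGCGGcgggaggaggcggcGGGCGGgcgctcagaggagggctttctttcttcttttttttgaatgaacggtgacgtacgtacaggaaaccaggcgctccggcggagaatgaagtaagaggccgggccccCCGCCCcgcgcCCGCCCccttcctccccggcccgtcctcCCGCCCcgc
Mcl1, chr3:95658471-95658720, plus strand: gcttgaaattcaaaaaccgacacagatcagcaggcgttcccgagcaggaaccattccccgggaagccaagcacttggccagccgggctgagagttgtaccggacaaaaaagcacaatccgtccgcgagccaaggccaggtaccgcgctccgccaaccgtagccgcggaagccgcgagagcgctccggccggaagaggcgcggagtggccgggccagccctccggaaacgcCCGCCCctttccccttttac
GC boxes were also found before the start sites of Bok (1) and Bid (3), before 1 of 2 start sites of Bad (3) and before both of Bcl2l11 (3 and 2), and none before that of Bak1, so that 8 of the 13 windows of members held at least 1. These matches describe the letters in the windows and were not linked to the changes by any test.

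Both pore-forming members measured were lower. Bok, which can permeabilise mitochondria with little control by pro-survival proteins, had log2 values of 9.11, 9.18, 9.28 and 9.14 on irr arrays, against 10.16, 10.10, 10.22 and 10.14 on non-irr arrays by its only probe set (1417040_a_at). All irr arrays lay below all non-irr arrays. The log2 fold change was -0.98 (standard error 0.052, adjusted p = 8.0e-08 from limma), the largest decrease among the tested member probe sets. This is just short of 2-fold, as the largest Mcl1 increase (0.99) is, while that of Bcl2l1 (1.05) is just past it.

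Bak1 encodes BAK, a pore former that sits on the mitochondrial outer membrane. Its brightest probe set (1418991_at) had log2 values of 8.25, 8.45, 8.57 and 8.59 on irr arrays, against 9.0, 8.99, 9.17 and 8.96 on non-irr arrays. The groups were apart, with irr replicate 1 the lowest of all, and the log2 fold change was -0.57 (standard error 0.082, adjusted p = 1.3e-04 from limma). The other Bak1 probe set was below the filter on every array and differed by -0.40 (log2), with no overlap.

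The BH3-only members did not move as a group. Bid encodes a protein that caspase-8 cleaves, which links death receptors to mitochondria, and both of its probe sets that passed the filter in each group were higher. Log2 values of the brightest (1417045_at) were 9.11, 9.24, 9.28 and 9.35 on irr arrays, against 8.40, 8.45, 8.61 and 8.43 on non-irr arrays. This is a 1.71-fold increase with no overlap (log2 fold change 0.77, standard error 0.066, adjusted p = 2.7e-06 from limma). Another Bid probe set read 0.52 higher (log2). The last passed the filter on 1 irr array and on no non-irr array, and its log2 difference of 0.53, between values mostly under the filter, is given as a description. Casp8, which encodes the protease that cleaves BID, stayed below the filter on all 8 arrays.

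Bad encodes a BH3-only protein that survival kinases inactivate by phosphorylation. It had log2 values of 10.52, 10.43, 10.59 and 10.52 on irr arrays, against 10.48, 10.42, 10.56 and 10.49 on non-irr arrays (1416582_a_at). The groups overlapped fully. The log2 fold change was 0.03 with a 95% interval from -0.09 to 0.15 (adjusted p = 0.63 from limma), and 0.08 with an interval from -0.06 to 0.21 by the other probe set (adjusted p = 0.27 from limma).

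Bcl2l11 encodes BIM, a BH3-only protein that binds all main pro-survival members and is held at low levels by growth factor signals. Its probe sets gave different answers. The brightest (1456005_a_at) had log2 values of 10.03, 9.46, 9.50 and 9.39 on irr arrays, against 9.93, 9.97, 9.79 and 9.73 on non-irr arrays. Irr replicate 1 alone lay above all non-irr arrays, and the other 3 irr arrays lay below them. The log2 fold change was -0.26 (standard error 0.13, 95% interval from -0.55 to 0.03, adjusted p = 0.095 from limma), and without irr replicate 1 it was -0.40 and was called (adjusted p = 5.9e-04 from limma). A second probe set (1435448_at) had 9.23, 9.20, 9.20 and 9.23 on irr arrays, against 9.25, 9.20, 9.11 and 9.19 on non-irr arrays. Here the groups overlapped and the 95% interval of the difference ran from -0.07 to 0.13. A further probe set (1435449_at) was lower with no overlap, by a log2 fold change of -0.41 (adjusted p = 2.5e-04 from limma). The last one tested (1456006_at) passed the filter on the non-irr arrays alone, so that its difference of -0.50 (log2) is given as a description, and was at least 1.25-fold lower, which takes the filter's intensity in place of the irr level. The fifth probe set was below the filter on every array and differed by -0.62 (log2) with no overlap. The mean of the 3 probe sets over the filter in both groups changed by -0.21 (log2, standard error 0.06, adjusted p = 0.0097 from limma).

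BIM is known as a target of the transcription factor FOXO3, and of the 13 windows of members, that before 1 of the 2 Bcl2l11 start sites was the only one with TGTTTAC, a core of the FOXO motif. It is shown for that reason, with the match, on the opposite strand, in capitals. Of all promoters, 3.17% held the motif.
Bcl2l11, chr2:128125788-128126037, plus strand: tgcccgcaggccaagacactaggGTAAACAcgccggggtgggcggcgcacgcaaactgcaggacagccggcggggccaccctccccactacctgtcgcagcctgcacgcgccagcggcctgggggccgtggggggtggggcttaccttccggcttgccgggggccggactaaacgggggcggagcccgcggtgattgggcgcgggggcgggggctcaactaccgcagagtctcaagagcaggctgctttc
RNA of Foxo3 itself was 3.10-fold higher by its brightest probe set, with log2 values of 11.38, 11.37, 11.33 and 11.33 on irr arrays, against 9.84, 9.79, 9.55 and 9.70 on non-irr arrays (log2 fold change 1.63, standard error 0.063, adjusted p = 9.9e-09 from limma). A second Foxo3 probe set read 2.85-fold higher. FOXO3 activity depends on where the protein lies in the cell and was not measured by the arrays. The same motif was found before 1 of 3 start sites of Bbc3.

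Bik, whose protein acts mainly at the endoplasmic reticulum, was at or below a log2 value of 5.94 on every array by all 3 probe sets. The brightest had 5.63, 5.65, 5.61 and 5.40 on irr arrays, against 5.86, 5.75, 5.88 and 5.94 on non-irr arrays. These groups do not overlap, but all values lie under the filter. In a fit with no filter, which called 29.1% of all 34945 probe sets lower, this probe set was called lower (-0.29, adjusted p = 0.0057 from limma). Another was called lower as well (-0.32, adjusted p = 0.026 from limma), while the last was not (-0.14, adjusted p = 0.11 from limma). With all values under the filter, these differences are given as a description.

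Among relatives outside the member list, the p53 target Bbc3, which encodes the BH3-only protein PUMA, changed more than any member. Its log2 values were 9.68, 9.71, 9.91 and 9.70 on irr arrays, against 7.55, 7.40, 7.56 and 7.39 on non-irr arrays, a 4.84-fold increase (log2 fold change 2.27, standard error 0.067, adjusted p = 1.8e-09 from limma). Pmaip1, which encodes NOXA, was below the filter on all arrays. It read 4.02, 4.40, 4.30 and 4.47 on irr arrays, against 3.31, 3.65, 3.71 and 3.73 on non-irr arrays. Bax was not analysed here. A list of other BCL2 relatives had 6 tested genes, of which 3 were lower (37.1% of all genes) and none was higher (40.2% of all), and their median change was -0.12 (log2), against 0.0065 over all tested genes. Bcl2l12 fell by 0.87, the mitochondrial Bcl2l13, a receptor for mitophagy, fell by 0.46 and Bcl2l14 fell by 0.16 on the log2 scale (adjusted p = 0.028 from limma). The groups of Bcl2l14 overlapped, and its call ended without irr replicate 1 or 4 or non-irr replicate 2 or 3 (-0.15 to -0.13).

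**Figure D3:**
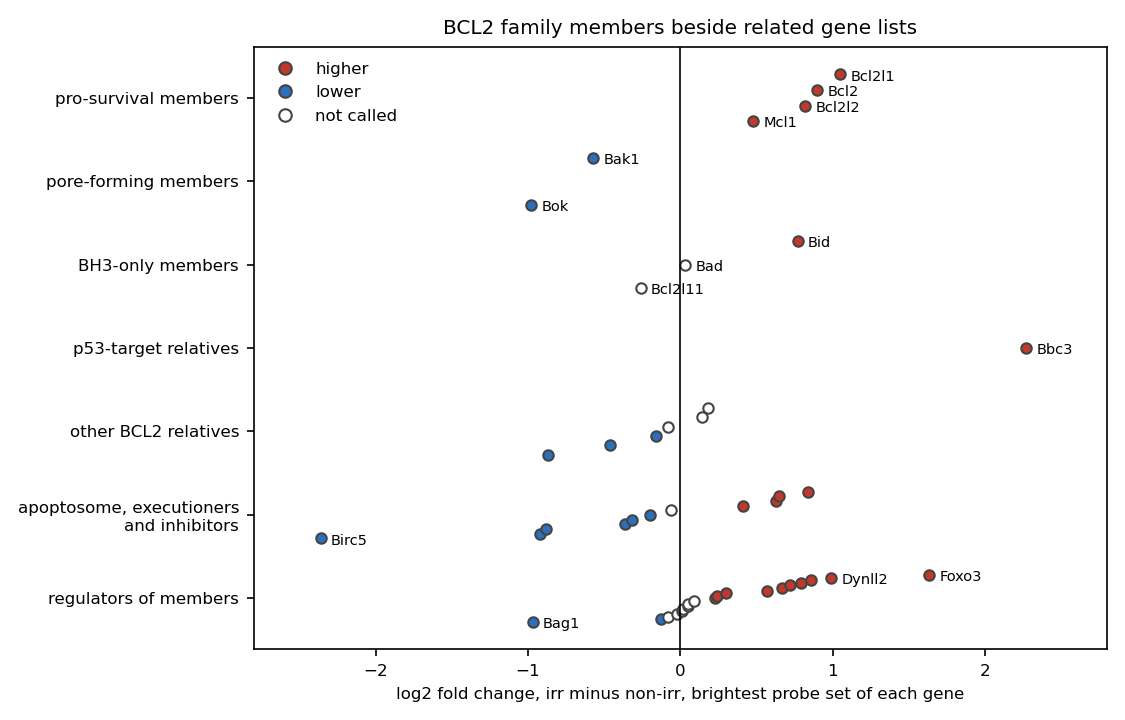
Log2 fold change (irr minus non-irr, 4 arrays each) of the brightest probe set of each tested gene, for the members by role and for 4 related lists. Points are red (higher), blue (lower) or open (not called) by limma at an adjusted p under 0.05, and their height within a row only separates them; the 4 pro-survival members lie between 0.48 and 1.05, Bbc3 at 2.27 and Birc5 at -2.36.

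Downstream of the members, genes of the apoptosome, the caspases it serves, their inhibitors and mitochondrial proteins such as those of Htra2 and Aifm1 went both ways. The 11 tested genes split into 4 higher (40.2% of all genes), 6 lower (37.1% of all) and 1 not called, and their median change was -0.20 (log2). The largest change was that of Birc5, which encodes survivin, a protein of the chromosomal passenger complex that peaks in mitosis. It averaged 9.60 ± 0.05 on irr arrays and 11.96 ± 0.04 on non-irr arrays (log2 values, SD, n = 4 each), with no overlap (log2 fold change -2.36, standard error 0.046, adjusted p = 2.8e-10 from limma). Htra2, which encodes a serine protease of the space between the mitochondrial membranes, fell by 0.92 and Aifm1, which encodes apoptosis-inducing factor of the same space, fell by 0.88 (log2). Among genes that act on the members or their transcripts, 10 of 19 tested were higher (40.2% of all genes) and 2 were lower (37.1% of all), and their median change was 0.23 (log2). Besides Foxo3, the largest changes were those of Dynll2, a dynein light chain that binds BMF (0.99 by its brightest probe set, and -0.58 by another), and of Bag1, a cochaperone that binds BCL2, which fell by 0.97 (log2). Lists were described by counts and medians and not tested as sets.

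The arrays were alike in scale, with medians between 6.22 and 6.24 (log2), and arrays of 1 group correlated at 0.991 or more, against 0.906 to 0.917 between groups (tested probe sets). Marker calls stand beside 40.2% of all tested genes higher and 37.1% lower. All 9 markers of neural stem cells passed the filter in both groups, 4 higher and 2 lower in irr NSCs. Their summed intensity was 60356 to 64106 on irr arrays, against 54858 to 57021 on non-irr arrays. Of 6 astrocyte markers 4 were higher and 2 were lower, with a summed intensity of 10965 to 11511 on irr arrays, against 12101 to 12751 on non-irr arrays. The sum and most of these calls thus went opposite ways. Aqp4, counted among these calls, was above the filter only on irr arrays. Neuron markers summed to 7860 to 8420 on irr arrays, against 6982 to 8034 on non-irr arrays, with 1 of 5 tested higher and 3 lower. Snap25 was below the filter on all arrays and Syt1 was above it only on irr arrays. Of 6 pluripotent cell markers, 4 were below the filter on all arrays (Pou5f1, Nanog, Zfp42 and Dppa3), and Dppa5a and Esrrb were over it in both groups with no call, for a summed intensity of 344 to 362 on irr arrays, against 362 to 383 on non-irr arrays. Of 6 microglia markers, 4 were below it (Aif1, Itgam, Cx3cr1 and Tmem119), and of Csf1r and P2ry12, over it in both groups, 1 was called higher. The microglia markers summed to 485 to 542 on irr arrays, against 435 to 485 on non-irr arrays. Of 6 endothelial markers, 5 were below it (Pecam1, Cdh5, Tek, Cldn5 and Vwf) and Kdr was over it and called lower, with sums of 263 to 276 on irr arrays, against 286 to 342 on non-irr arrays. The gap between the actin controls nearest the 3′ end and nearest the 5′ end was 0.51 ± 0.07 (log2, SD, n = 4) on irr arrays and 0.26 ± 0.03 on non-irr arrays, and that of Gapdh was -0.06 ± 0.03 on irr arrays and -0.08 ± 0.04 on non-irr arrays. The part of cell type and of RNA ends in the changes of the members, and in the differences between probe sets of 1 gene, was not tested.

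The direction of the changes held where the arrays were put on another scale, while the calls near 0 depended on it. Centring the arrays on 7 reference genes moved the median change of all probe sets to 0.162, against -0.008 on the deposited scale (log2), and the calls over all probe sets to 9837 higher and 5069 lower, against 7554 and 7404. On that scale 21 member probe sets were higher and 4 were lower. The pro-survival genes read 1.06 for Bcl2, 1.21 for Bcl2l1, 0.99 for Bcl2l2 and 0.65 for Mcl1 by their brightest probe sets, and Bok (-0.82) and Bak1 (-0.41) stayed lower. On that scale 4 further probe sets were called higher, 1422938_at of Bcl2 (0.37, adjusted p = 0.0034 from limma), both of Bad (0.19, adjusted p = 0.013, and 0.24, adjusted p = 0.0079, from limma) and 1435448_at of Bcl2l11 (0.19, adjusted p = 0.0024 from limma). The reference genes themselves changed, by -0.66 for Pgk1 to 0.20 for Sdha (log2), and which scale fits these calls was not tested.

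**Figure D4:**
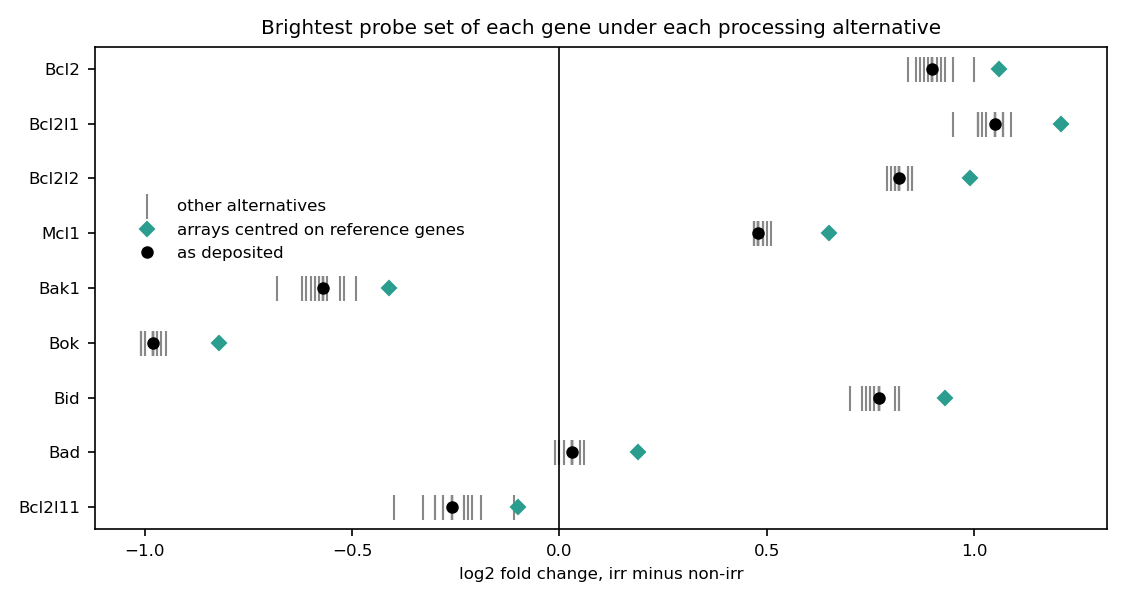
Log2 fold change (irr minus non-irr) of the brightest probe set of each of the 9 tested members with the values as deposited (black circle), with arrays centred on reference genes (green diamond) and with each other alternative that held the probe set (grey ticks). Bcl2, Bcl2l1, Bcl2l2, Mcl1 and Bid stay above 0 and Bak1 and Bok below it, Bad crosses 0, and Bcl2l11 runs from -0.40 to -0.10.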

How the data were processed

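RNA of 4 irr (10 Gy, day 7) and 4 non-irr NSC samples was hybridised to Affymetrix mouse genome arrays. The deposited values are log2 values that the authors made from GCOS intensities by RMA in R (background correction, quantile normalization, probe summary). Detection calls were not used. Of 45101 probe sets, 34958 list 1 symbol, 932 several and 9211 none (annotation of the platform, symbols checked through Entrez numbers); the last 2 groups and 64 controls were left out. A minimum intensity of 100, to be passed on 1 array or more, left 19713 probe sets, and limma 3.58.1 (R 4.3.3) was run on all of them, two-sided, with Benjamini-Hochberg adjustment; calls are at an adjusted p under 0.05. The methods' threshold of 2-fold was applied as a second count. Each gene is represented by its brightest probe set (highest mean over 8 arrays), and fold changes are irr over non-irr. Members, gene lists and tests were chosen with earlier results of these data known. All members were named with all probe sets, and in each related list the 3 called genes with the largest change. The number of arrays limits the precision. Alternatives were other filters, scales, limma settings and thresholds, a replicate block, leaving out arrays, and other choices of probe sets. The fit was tested on simulated data. Promoters are from RefSeq (GRCm38.p6). Figures were drawn with matplotlib 3.10.9.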

Additional observations from a re-analysis of the deposited data

Results flagged for a closer look

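In each group of 4 arrays, the highest and the lowest value were checked for a gap that is large against the group's range (Dixon's ratio past its 95% critical value), for the 35 member probe sets and the 10 named genes of related lists. Of 90 groups 5 were marked, and chance marks about 1 group in 20. On non-irr replicate 3 a Bcl2 probe set below the filter (1440770_at) read 5.60, against 4.96 for the nearest of the others, and a Bcl2l1 probe set (1420887_a_at) read 6.28, against 6.60. On non-irr replicate 2 a Bcl2l1 probe set below the filter (1426191_a_at) read 5.12, against 5.63, and Bcl2l12 read 8.75, against 8.93. Bbc3 read 9.91 on irr replicate 3, against 9.71.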

How the results depend on the processing

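The 26 tested member probe sets gave 525 values under 21 alternatives, of which 504 kept their direction or stayed uncalled and kept their side of the threshold, 11 lost their call, all of them in the test against a 1.5-fold change, and 10 gained one. No called member changed direction. With no filter 19 member probe sets were higher (24.7% of all probe sets) and 8 were lower (29.1% of all). The 9 more that were tested held 2 of Bcl2 that were higher and 4 that were lower (1 of Bak1, 2 of Bik and 1 of Bcl2l11). An intensity over 200 left 20 member probe sets, 13 higher (41.5% of all) and 2 lower (38.7% of all). The test against a 1.5-fold change called 9 higher (12.5% of all probe sets) and 1 lower (9.77% of all). It called 4 genes higher and 1 lower, with no share of all genes counted. With plain identifiers only, 10 probe sets were higher (40% of all) and 3 were lower (35.2% of all). Among genes 1 was lower, since Bok has no such probe set. At least 2-fold higher were 7 with arrays centred on reference genes, a scale on which 49.9% of all probe sets were called higher. At least 2-fold lower was 1, with a further quantile normalization and without irr replicates 3 and 4, as Bok lies near that threshold. Shares of all probe sets changed at least 2-fold were counted with the main settings only (8.46% higher and 6.10% lower). Leaving out 1 array gave 16 to 18 probe sets higher (36.9% to 38.1% of all) and 4 to 5 lower (35.7% to 37.3% of all). Of these, 2 to 3 were at least 2-fold higher and 0 to 1 at least 2-fold lower (1 without irr replicate 3). By gene, 5 were higher and 2 to 3 lower. Shares of all genes were not counted under any alternative, and with the main settings were 40.2% higher and 37.1% lower. Bcl2l14 read 0.00 with arrays centred on reference genes (adjusted p = 0.98 from limma). Replicate numbers are shared by the groups. The deviations of same-numbered arrays correlated at -0.188 to 0.526. Irr replicates 2 and 4 correlated best with their own number, and 1 and 3 better with another. Whether same-numbered arrays are paired cannot be told from these values. With the replicate block 5 member probe sets were lower, Bcl2l11 1456005_a_at being added (-0.26, adjusted p = 0.047 from limma), and over all probe sets 7611 were higher and 7472 lower. Array weights also called it (-0.33, adjusted p = 0.024 from limma). A mean of all probe sets gave 5 genes higher and 3 lower. Keeping only probe sets over the filter in both groups, an alternative chosen after seeing the data, gave 16 probe sets higher and 3 lower, and 5 genes higher and 2 lower. Values below the filter limit what can be said of Bik and of 6 other probe sets of members.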
